A study of Mus musculus with 15 samples.

Results

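Granulocyte-macrophage progenitors (GMP) of old and young mice were compared on 7 arrays, 3 of old and 4 of young GMP, out of 15 arrays in the series. The other 8 arrays held haematopoietic stem cells (HSC), 3 from old and 5 from young mice, and are used here only to show where GMP differed from them. All 7 GMP arrays were taken by their labels, and the comparison covered all 19296 genes with a probe set of a single symbol. Both age groups were C57Bl/6 mice labelled male, without a transgene, deletion or treatment in the labels. The young group was aged 6 to 12 weeks and the old group 22 to 30 months. GMP had been sorted from marrow enriched for c-Kit as cells without lineage markers or Sca1, with cKit, CD34 and the Fc gamma receptor, in a double sort. The little RNA these cells gave was amplified over the whole transcript before hybridisation. Whether each array held the RNA of 1 mouse or of a pool is not in the labels, so every p-value rests on the spread between arrays, which may be technical.

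GMP are the marrow progenitors that give rise to neutrophils, monocytes and macrophages. They switch on the genes of the primary, or azurophil, granule (myeloperoxidase and the neutrophil serine proteases) under the transcription factors PU.1 and C/EBP alpha, and they divide far more than the stem cells from which they descend. The gate is not pure in kind: cells on the way to dendritic cells, basophils and mast cells share parts of it. In the ageing marrow the output of stem cells is known to shift from lymphoid towards myeloid cells.

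On the log2 scale of the deposited values, Mpo (myeloperoxidase) lay between 13.05 and 13.32 on the 7 GMP arrays and between 6.40 and 7.29 on the 8 HSC arrays. Elane (neutrophil elastase) lay between 11.06 and 11.95 in GMP and between 6.5 and 7.02 in HSC. Of 15 genes of the sort gates measured, the groups did not overlap for 2, both higher in old GMP: Flt3, described below, and Ptprc (CD45). Ptprc was 10.51, 10.50 and 10.56 in old and 10.28, 10.22, 10.23 and 10.24 in young GMP, a difference of 0.28 ± 0.13 log2 (SE) that did not pass the adjusted test. Kit was 10.03 to 10.19 in old and 10.04 to 10.34 in young GMP, and Cd34 was 10.73 to 11.10 in old and 10.61 to 11.21 in young GMP. Fcgr3, a low-affinity Fc gamma receptor, was 9.79, 9.75 and 10.07 in old GMP and 10.31, 10.37, 10.26 and 10.06 in young GMP, a difference of -0.38 ± 0.17 log2 (SE) with overlapping groups.

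One array stood apart. Young GMP replicate 4 lay at -27.0 on the first principal component of the 7 GMP arrays, which held 42.5% of their variance, while the other young arrays lay between 9.4 and 21.4 and the old arrays at -13.2, -12.6 and 7.1. The second component held 18.3% of the variance, and on it the ages did not overlap. Old arrays lay there at 9, 9.9 and 15.7, and young replicates 1 to 4 at -1.7, -8.1, -10.4 and -14.4. On that axis replicate 4 was the array furthest from the old ones. The correlation of replicate 4 with the other young GMP arrays was 0.983 to 0.986 across genes, against 0.994 to 0.995 among those 3. It also went against its male label. Kdm5d, a Y-linked histone demethylase gene, was 6.51 on this array, against 8.76, 7.49 and 8.31 on the other young arrays and 8.73 to 8.96 on the old arrays. Eif2s3y, a Y-linked translation factor gene, was 4.32 there and 7.77 to 9.57 on the other 6 GMP arrays. Xist, the non-coding RNA of X inactivation in female cells, was 5.49, 10.51, 8.92 and 10.95 on young replicates 1 to 4 and 5.70, 5.76 and 5.84 on the old arrays. So young replicates 2 and 3 carried both Xist and Y-linked signal, and replicate 4 carried Xist with low Y-linked signal. High Xist was thus found on young arrays only, and leaving out replicate 4 does not remove this. The Xist difference was -3.20 ± 1.23 log2 with 7 arrays and -2.54 ± 1.28 without replicate 4, and neither passed the adjusted test. Sex signal and age are therefore partly confounded in the whole comparison, with or without that array. List medians and the genes the results turn on are given with and without this array where it decides them, and a fit with the mean of the Y-linked genes as a covariate was also made.

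**Figure D1:**
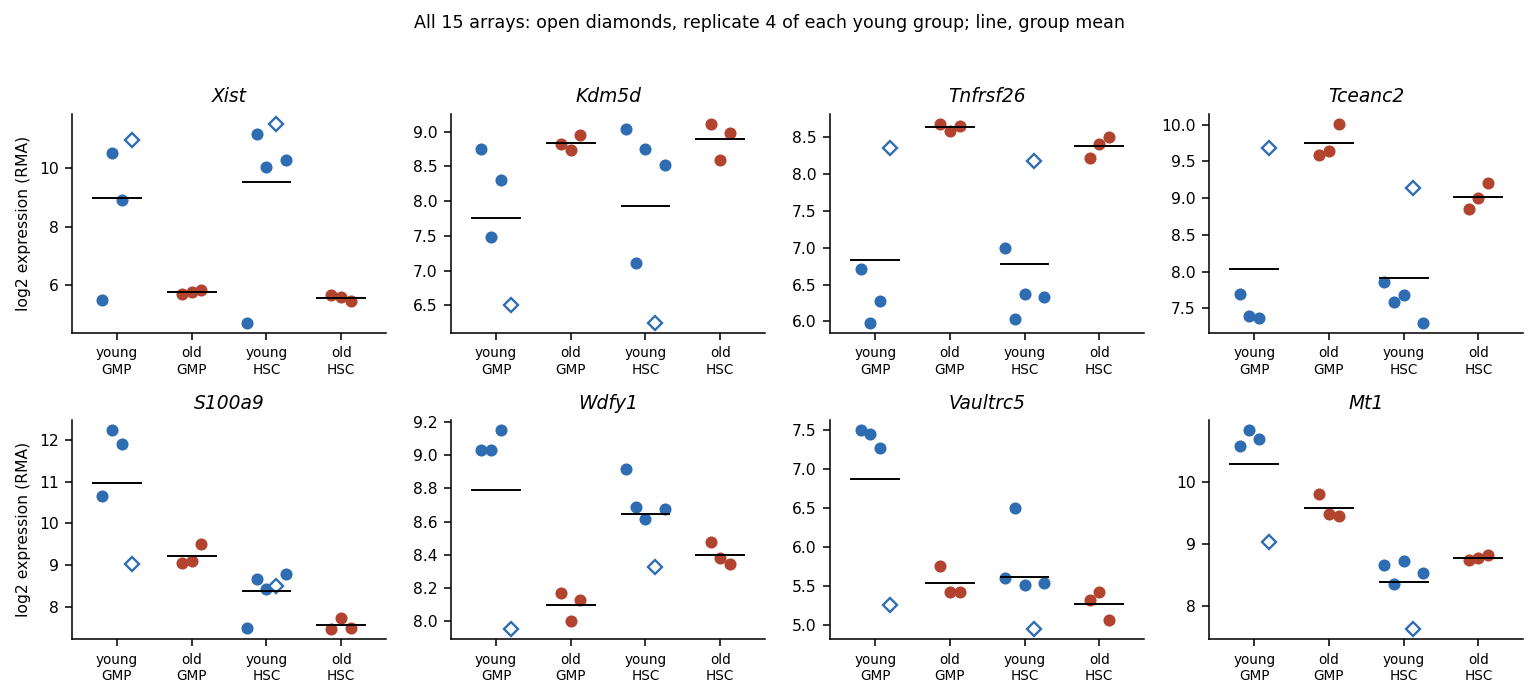
Log2 expression of 8 genes on all 15 arrays, by group; each point is an array (blue young, red old), the line the group mean, and the open diamonds replicate 4 of each young group. Young GMP replicate 4 is at 6.51 for Kdm5d, below the other GMP arrays, and at 8.36 for Tnfrsf26, near the old GMP arrays at 8.58 to 8.69.

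No gene passed an adjusted p of 0.05 in the comparison of all 7 GMP arrays. In limma's moderated fit, 0 of 19296 genes (0%) were called, and the lowest adjusted p was 0.294, for Flt3. At an unadjusted p below 0.05 there were 870 genes (4.51%), 301 higher and 569 lower in old GMP. The 3 old values lay above all 4 young values for 599 genes (3.1%) and below them for 718 genes (3.72%). The difference was negative for 10019 genes and positive for 9277. These shares and counts are the background for every count of list members below. The 95% interval of the age difference lay within 1 log2, or 2-fold, of 0 on both sides for 19088 genes (98.9%), with a median SE of 0.142 log2.

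Without young GMP replicate 4, 12 genes passed (0.0622%), 4 higher and 8 lower in old GMP. Without replicate 4 of both the young GMP and the young HSC arrays, which share the estimate of the spread, 188 genes passed (0.974%), 19 higher and 169 lower. With the Y-linked mean as a covariate 224 genes passed (1.16%), 25 higher and 199 lower. Young GMP replicate 4 lay nearer the mean of the old GMP arrays than that of the other young GMP arrays for 12567 of all 19296 genes. Leaving out any other GMP array gave 0 calls. In what follows, values for the 7 arrays come first, and "without replicate 4" means without young GMP replicate 4.

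Among bright genes whose groups did not overlap, Flt3, the receptor tyrosine kinase of multipotent, lymphoid and dendritic progenitors, had the smallest p. It was 8.33, 8.44 and 8.73 in old GMP and 7.80, 7.65, 7.84 and 7.76 in young GMP. Every old array was above every young array, and replicate 4 lay with the other young arrays. The difference was 0.73 ± 0.13 log2 (SE), or 1.66-fold, with a 95% interval of 0.47 to 1.00 and an adjusted p of 0.294. Without replicate 4 the adjusted p was 0.0626, and over the 18 alternatives it ran from 0.00127 to 0.906, passing in 5.

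Slamf7, a surface receptor of the SLAM family, was low in both groups, at 6.17, 6.38 and 6.19 in old and 5.15, 5.56, 5.5 and 5.77 in young GMP. It was higher in old GMP by 0.75 ± 0.14 log2 (adjusted p = 0.473) and passed without replicate 4, with a difference of 0.84 ± 0.14 (adjusted p = 0.0276, from 0.00121 to 1 over 17 alternatives). Gm2a encodes a lysosomal cofactor of ganglioside breakdown. Its values were 10.10, 9.90 and 9.92 in old GMP and 9.28, 8.97, 9.11 and 9.77 in young GMP. The last of these, replicate 4, lay close to the old arrays, and the difference went from 0.69 ± 0.16 (adjusted p = 0.575) to 0.85 ± 0.13 (adjusted p = 0.0151) without it, within a range of 0.000931 to 1 over 18 alternatives.

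The largest difference of all among bright, non-overlapping genes was that of Tnfrsf26, a member of the TNF receptor family. It was 8.69, 8.58 and 8.66 in old GMP and 6.71, 5.98, 6.27 and 8.36 in young GMP. Young replicates 1 to 3 were far below the old arrays, and replicate 4 was just under them. The 7 arrays gave 1.81 ± 0.45 log2, or 3.51-fold (adjusted p = 0.628), and the 6 arrays without replicate 4 gave 2.32 ± 0.36, or 5.00-fold (adjusted p = 0.0151, from 5.04e-06 to 1 over 18 alternatives).

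Other genes higher in old GMP by the same rule were Ctse (cathepsin E, by 0.84 ± 0.25 log2), Snord82 (a small nucleolar RNA, by 0.74 ± 0.22), Tspan32 (a tetraspanin of blood cells, by 0.70 ± 0.18), H1f5 (a linker histone, by 0.65 ± 0.17) and Muc13 (a transmembrane mucin, by 0.59 ± 0.17). None of these 5 passed with all 7 arrays or without replicate 4. H1f5 was 11.02, 10.65 and 10.84 in old and 10.27, 10.19, 10.16 and 10.13 in young GMP, with replicate 4 among the young arrays. Dennd4a (0.69 ± 0.28) and Myo9a, an unconventional myosin (0.67 ± 0.26), were also on this list, but their probe sets disagreed: the 9 probe sets of Dennd4a ran from -0.04 to 0.73, and the 13 of Myo9a from -0.45 to 0.67.

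**Figure D2:**
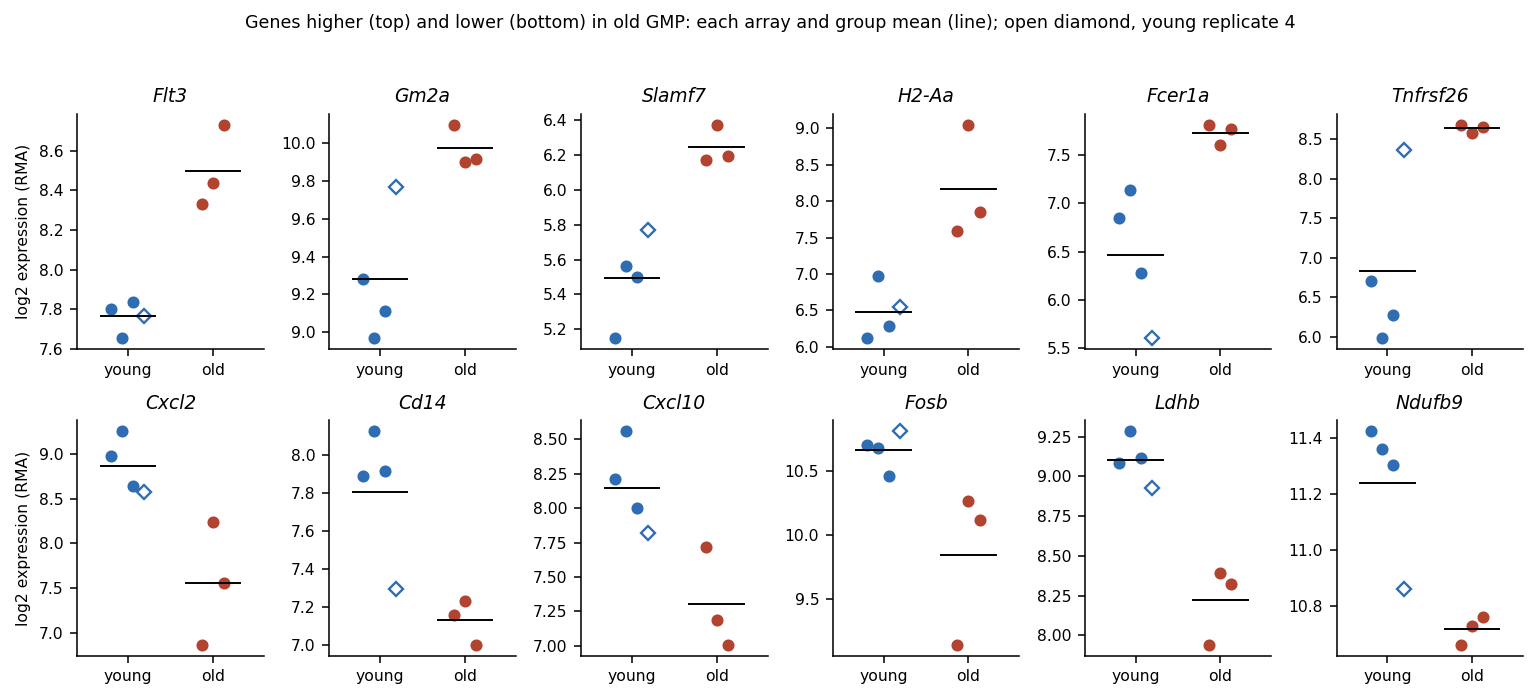
Log2 expression of 12 named genes on each GMP array (blue young, red old; line, group mean; open diamond, young replicate 4); each panel has its own axis. The 3 old arrays lie above all young arrays in the top row and below them in the bottom row, with Flt3 at 8.33 to 8.73 in old and 7.65 to 7.84 in young GMP and Cxcl2 at 6.87 to 8.24 in old and 8.58 to 9.25 in young GMP.

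Genes of dendritic cells and of antigen presentation by MHC class II were mostly higher in old GMP, though none passed the adjusted test in limma. MHC class II molecules present peptides to helper T cells, and early dendritic progenitors, which arise close to GMP, carry Flt3. Of 22 genes listed 21 were measured, 0 passed the adjusted test, and 17 had a positive and 4 a negative difference. Unadjusted p was below 0.05 for 4 genes, all higher in old GMP, and 5 of the 21 had every old array above every young array, against 3.1% of all genes. Flt3, already described for its small p, is in both counts. It is on the lymphoid, sort gate and growth factor receptor lists too. The median difference was 0.126 log2, against -0.006 over all genes, and it stayed between 0.071 and 0.204 in every alternative. The mean of the list was 7.59, 7.91 and 7.62 on the old arrays and 7.36, 7.42, 7.46 and 7.58 on the young arrays. Old and young did not overlap, though replicate 4 came within reach of the lowest old array.

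H2-Aa, the alpha chain of an MHC class II molecule, had the largest difference of the list. It was 7.59, 9.05 and 7.85 in old GMP and 6.12, 6.97, 6.29 and 6.55 in young GMP. Old arrays were higher without exception, but they spread widely, old replicate 2 standing over 1 log2 above the other old arrays. The difference was 1.68 ± 0.45 log2, or 3.21-fold (adjusted p = 0.666), and 1.70 ± 0.49 without replicate 4 (adjusted p = 0.286, from 0.00632 to 1 over 17 alternatives). Cd74, the invariant chain that escorts MHC class II, was 7.09, 7.91 and 6.87 in old and 6.29, 6.65, 6.46 and 6.63 in young GMP, higher by 0.78 ± 0.34. Other class II genes did not separate: H2-Ab1 was 8.18 to 9.66 in old and 8.45 to 8.86 in young GMP, and Ciita, the master regulator of the class II genes, was 6.58 to 6.86 and 6.63 to 6.90. Siglech, a marker of plasmacytoid dendritic cells, was 6.90 to 7.02 in old and 6.88 to 7.53 in young GMP. In sorted bulk cells, more cells of a type and more RNA per cell cannot be told apart.

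The promoter of H2-Aa is shown because the class II genes are known to share an element called the Y box. The sequence is the 250 bases before the RefSeq start of the gene, chr17:34287824-34288073 on the minus strand of GRCm38.p6, 5′ to 3′, with the match to CTGATTGG in capitals.
H2-Aa: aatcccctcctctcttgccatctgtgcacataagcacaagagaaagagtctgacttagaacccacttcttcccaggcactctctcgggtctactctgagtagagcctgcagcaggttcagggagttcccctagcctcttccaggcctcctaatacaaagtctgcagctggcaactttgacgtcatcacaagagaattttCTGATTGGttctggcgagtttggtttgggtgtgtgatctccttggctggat
The match begins 51 bases before the start. On either strand, 3.83% of the 32851 RefSeq promoter windows of this length hold these letters. A match is a description of the sequence and was not tested as a site.

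Markers of neighbouring branches differed gene by gene rather than as lists. Fcer1a, the alpha chain of the IgE receptor of mast cells and basophils, was 7.82, 7.60 and 7.77 in old GMP and 6.85, 7.14, 6.28 and 5.60 in young GMP. All old arrays were above all young arrays, and replicate 4 was the lowest. The difference was 1.26 ± 0.28 log2, or 2.40-fold (adjusted p = 0.575), and 0.97 ± 0.25 without replicate 4. Cpa3, the mast cell carboxypeptidase, was higher by 0.41 ± 0.19 with overlapping groups, while Gzmb (granzyme B) was lower by 0.80 log2 (SE 0.21), at 7.16, 8.03 and 7.80 in old and 7.98, 8.30, 8.57 and 9.04 in young GMP. Mcpt8, a basophil protease, was 10.15 to 10.55 in old and 10.08 to 10.36 in young GMP. Over the 19 mast cell, basophil and eosinophil genes measured the median difference was 0.071 (0.116 without replicate 4), with 2 higher and 1 lower at an unadjusted p below 0.05; the median was just below 0 without old GMP replicate 1 or without old GMP replicate 2.

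Lymphoid genes also pointed both ways. Dntt, the terminal transferase of early lymphoid cells, was low throughout, at 5.75, 5.99 and 5.92 in old and 5.17, 5.10, 5.37 and 5.53 in young GMP, a non-overlapping difference of 0.59 ± 0.15 log2 (adjusted p = 0.628). Mef2c, a transcription factor of lymphoid and myeloid cells, was higher by 0.28 ± 0.11, also without overlap. Vpreb1, a part of the pre-B cell receptor, was lower by 1.02 log2 (SE 0.47) with overlapping groups, 6.43, 8.28 and 8.90 against 9.39, 9.14, 8.98 and 8.06. Il7r and Rag1 had differences of 0.07 and -0.00. Of 23 lymphoid genes measured, 3 were higher and 1 lower at an unadjusted p below 0.05, with a median difference of 0.064 (0.127 without replicate 4) that turned slightly negative with the interquartile range as a covariate or without young GMP replicate 1. The 3 higher were Flt3, Dntt and Mef2c, and the 1 lower was Vpreb1, which is on the B cell list as well. Among 14 B cell, 19 T and NK cell, 18 erythroid, 14 megakaryocyte and 18 endothelial and stromal genes, the counts at an unadjusted p below 0.05 were 2, 1, 0, 0 and 0, all of them lower in old GMP.

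The mean of the genes of inflammatory signalling was lower on every old array than on every young array. NF-kB is the transcription factor through which Toll-like receptors and cytokines switch on chemokines and its own inhibitors. Of 34 genes measured 0 passed, and 22 had a negative and 12 a positive difference, where 10019 of all 19296 genes were negative. There were 7 lower and 1 higher at an unadjusted p below 0.05, and 6 lay below the young range on every old array, against 3.72% of all genes. The mean of the list was 7.57, 7.69 and 7.54 on the old arrays and 7.77, 7.83, 7.76 and 7.71 on the young arrays, without overlap. The median difference was -0.082 log2 and stayed between -0.169 and -0.043 over the alternatives.

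Among the ligands, Cxcl2, a neutrophil-attracting chemokine, differed most. It was 6.87, 8.24 and 7.56 in old GMP and 8.98, 9.25, 8.64 and 8.58 in young GMP. The lowest young array was above the highest old array, although the old arrays spread over more than 1 log2. The difference was -1.31 ± 0.29 log2, a 2.48-fold lower level (adjusted p = 0.575), and -1.41 ± 0.31 without replicate 4 (adjusted p = 0.112, from 0.0047 to 1 over 18 alternatives). Il6 and Il1b, cytokines of the same list, had differences of 0.02 and 0.13. Cxcl10, an interferon-inducible chemokine, is not on the list and is described for the size of its difference. It was 7.72, 7.18 and 7.01 in old and 8.21, 8.56, 8.0 and 7.82 in young GMP, a difference of -0.84 ± 0.23 without overlap.

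Among receptors and enzymes, Cd14, the co-receptor for bacterial lipopolysaccharide, was 7.16, 7.23 and 7.0 in old GMP and 7.89, 8.13, 7.92 and 7.30 in young GMP. Replicate 4 lay just above the old arrays. Cd14 was lower by 0.68 log2 (SE 0.16, adjusted p = 0.628) and passed without replicate 4 at -0.85 ± 0.13 (adjusted p = 0.0166, from 0.00121 to 1 over 18 alternatives). Ccrl2, an atypical chemokine receptor, is likewise not a list member and was named for its difference. It was 7.75, 7.54 and 7.75 against 8.31, 8.51, 8.52 and 8.37, with replicate 4 among the young arrays, and the difference was -0.75 ± 0.19 with it and -0.76 ± 0.20 without. Ptgs2, the inducible cyclooxygenase, was 7.01, 7.28 and 7.34 against 8.24, 8.07, 7.94 and 7.73, a difference of -0.78 ± 0.34.

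Nfkbia, Nfkbib, Nfkbiz and Tnfaip3, regulators of the pathway, had negative differences. Nfkbia, which holds NF-kB in the cytoplasm and is itself one of its targets, was 8.68, 9.14 and 8.72 in old GMP and 9.62, 9.54, 9.29 and 9.24 in young GMP, a difference of -0.57 ± 0.20 without overlap. Nfkbib differed by -0.34 ± 0.13 without overlap, and Nfkbiz and Tnfaip3 by -0.49 ± 0.20 and -0.42 ± 0.18 with overlap. Rela, a subunit of NF-kB, was higher by 0.36 ± 0.13, at 9.15, 9.14 and 9.03 against 8.84, 8.70, 8.68 and 8.77. None of these 5 genes passed the adjusted test with 7 arrays.

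The promoters of Cxcl2 and Nfkbia, of the list, and of Cxcl10 are printed because they hold letters of the NF-kB motif, GGGA followed by any 4 bases and CC, which 17.63% of all 32851 RefSeq windows of 250 bases hold on one strand or the other. Each is the 250 bases before the start, from GRCm38.p6, 5′ to 3′ on the strand of the gene, with matches on either strand in capitals: Cxcl2 is at chr5:90903649-90903898 (plus strand), Cxcl10 at chr5:92348890-92349139 (minus strand) and Nfkbia at chr12:55492648-55492897 (minus strand).
Cxcl2: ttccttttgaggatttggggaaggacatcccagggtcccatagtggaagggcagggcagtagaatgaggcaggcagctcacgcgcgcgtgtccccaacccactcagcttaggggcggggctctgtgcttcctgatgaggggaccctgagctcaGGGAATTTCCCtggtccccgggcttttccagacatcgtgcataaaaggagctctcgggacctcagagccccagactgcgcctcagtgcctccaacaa
Cxcl10: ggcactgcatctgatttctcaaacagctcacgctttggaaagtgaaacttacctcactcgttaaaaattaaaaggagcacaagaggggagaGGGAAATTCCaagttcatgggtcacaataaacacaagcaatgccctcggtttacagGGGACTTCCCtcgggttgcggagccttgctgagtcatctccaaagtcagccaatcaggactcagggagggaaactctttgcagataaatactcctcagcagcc
Nfkbia: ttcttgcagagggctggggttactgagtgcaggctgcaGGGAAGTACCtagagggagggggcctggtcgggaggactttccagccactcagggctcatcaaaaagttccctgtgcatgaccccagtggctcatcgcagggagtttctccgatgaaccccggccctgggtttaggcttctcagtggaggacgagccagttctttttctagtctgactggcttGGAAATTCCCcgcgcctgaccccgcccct
The matches of Cxcl2 overlap, 1 on each strand, and lie 97 bases before the start. Cxcl10 and Nfkbia hold 2 separate matches each. The window of Ptgs2 holds 0, which says only that these letters are not in those 250 bases. Binding of NF-kB was not measured.

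Immediate-early genes, which cells switch on within minutes of a stimulus, had negative differences for 23 of 26 members. Over all 19296 genes 10019 were negative. At an unadjusted p below 0.05, 5 members were lower and 0 higher, where all genes gave 569 lower and 301 higher. On every old array 3 members were below the young range, against 3.72% of all genes, and 0 passed the adjusted test. Fosb, a subunit of the AP-1 transcription factor, was 9.14, 10.27 and 10.12 in old GMP and 10.70, 10.68, 10.46 and 10.81 in young GMP. The difference of -0.82 ± 0.22 log2 (adjusted p = 0.653) leaned on old replicate 1, the lowest array. Fos (-0.56 ± 0.21), the phosphatase gene Dusp1 (-0.54 ± 0.21) and Ier2 (-0.50 ± 0.22) had the same sign, and old replicate 1 was lowest for each. Egr1, a zinc finger factor of the same response, was 7.06, 7.95 and 8.28 in old and 7.85, 7.80, 7.23 and 8.17 in young GMP, with no difference in either direction beyond 0.48 log2 at the 95% interval. The list median was -0.193 log2, between -0.278 and -0.130 over the alternatives. The list mean was 7.985, 8.409 and 8.289 on old replicates 1 to 3 and 8.376 to 8.520 on the young arrays, so the groups overlapped. These genes can also respond to the handling of cells during a sort, and the part of handling was not tested.

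**Figure D3:**
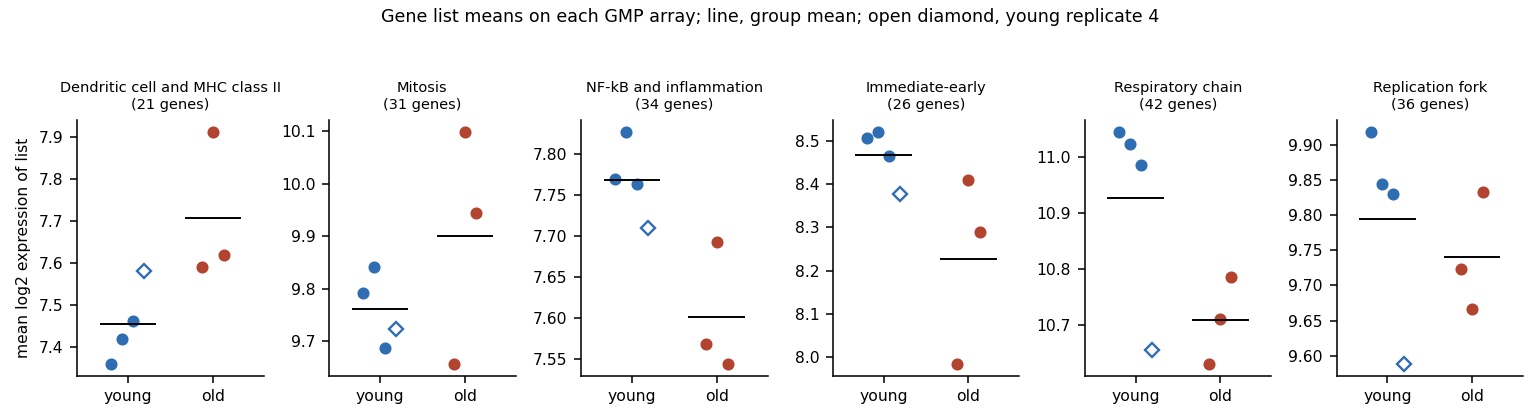
Mean log2 expression of 6 gene lists on each GMP array (blue young, red old; line, group mean; open diamond, young replicate 4); each panel has its own axis. Old arrays lie above young arrays for the dendritic list and below them for the inflammation list, while for the respiratory chain replicate 4, at 10.66, lies among the old arrays at 10.63 to 10.79.

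Respiratory chain genes had the lowest median of the 35 lists, with negative differences for 39 of 42 members. Of these, 5 were lower at an unadjusted p below 0.05 and 0 higher, where all 19296 genes gave 569 lower and 301 higher. On every old array 8 members were below the young range, against 3.72% of all genes. The median difference was -0.218 log2, and -0.323 without replicate 4, with a range of -0.418 to -0.149 over the alternatives. The list mean was 10.63, 10.71 and 10.79 on the old arrays, 11.04, 11.02 and 10.99 on young replicates 1 to 3 and 10.66 on replicate 4, which lay among the old arrays. Ndufb9, a subunit of complex I, was 10.66, 10.73 and 10.76 in old GMP and 11.42, 11.36, 11.30 and 10.86 in young GMP, lower by 0.52 log2 (SE 0.21). Ndufa8, of the same complex, kept replicate 4 with the young arrays: 9.18, 9.36 and 9.62 against 9.90, 9.77, 9.85 and 9.73, lower by 0.42 (SE 0.14, adjusted p = 0.9). Uqcrfs1, the iron-sulfur subunit of complex III, differed by -0.35 ± 0.14 and Ndufs7 by -0.46 ± 0.17, also without overlap. No gene of the chain passed with the 7 arrays.

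The spread of the arrays and the brightness of genes are set beside this list, and their part in it was not tested. The interquartile range of the arrays was 2.29, 2.27 and 2.48 log2 in old GMP, 2.61, 2.50 and 2.43 in young replicates 1 to 3 and 2.13 in replicate 4. Over 5 equal classes of genes by brightness, from dimmest to brightest, the median difference was 0.041, 0.008, -0.017, -0.046 and -0.028. After quantile normalisation these class medians lay between 0.000 and 0.014, and the median of the respiratory chain list was -0.190. With the interquartile range as a covariate the list median was -0.149, the nearest to 0 of the alternatives.

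Among other metabolic genes, Ldhb, the lactate dehydrogenase subunit of oxidative tissues, was 7.94, 8.39 and 8.32 in old GMP and 9.08, 9.29, 9.12 and 8.93 in young GMP. The groups did not overlap, replicate 4 included, and both probe sets had the same sign, at -0.88 and -0.78. The difference was -0.88 ± 0.20, 1.85-fold lower (adjusted p = 0.575, and 0.153 without replicate 4), and it passed in 5 of 18 alternatives (adjusted p from 0.000931 to 1). Hk1 and Hk2, hexokinases that start glycolysis, were higher in old GMP by 0.37 ± 0.13 and 0.28 ± 0.13, both without overlap, and the 19 glycolytic genes had a median of 0.006 (-0.033 without replicate 4). Coq6, a monooxygenase of ubiquinone synthesis, was 7.29, 7.17 and 7.13 against 7.76, 7.77, 7.70 and 7.59, lower by 0.51 (SE 0.11, adjusted p = 0.575). Ppp4r2, a regulatory subunit of protein phosphatase 4, and Dtwd1 were also among the 10 largest differences downwards, at -0.68 ± 0.20 and -0.66 ± 0.21. The metallothioneins, small metal-binding proteins, did not pass either; the 22 antioxidant genes, which include them, had a median of -0.072 (0.006 without old GMP replicate 1). Mt2 was 6.77, 6.39 and 6.72 against 7.86, 8.45, 7.11 and 6.85, a difference of -0.94 ± 0.41. Mt1 was 9.80, 9.49 and 9.46 against 10.58, 10.83, 10.69 and, on replicate 4, 9.04, so the groups overlapped only through that array, and the difference went from -0.70 ± 0.32 to -1.11 ± 0.21 without it.

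Factors and receptors of GMP identity had small differences. Of 37 myeloid transcription factor genes, 2 were higher and 1 lower at an unadjusted p below 0.05, with a median of 0.014 (0.025 without replicate 4, -0.020 without old GMP replicate 2). Cebpa, Spi1 (PU.1), Irf8 and Gfi1, the factors that set up the granulocyte and monocyte fates, had differences of 0.14 ± 0.17, 0.27 ± 0.17, 0.09 ± 0.18 and -0.16 ± 0.13, all with overlap. That of Spi1 was 0.14 without replicate 4. Cebpb, the C/EBP factor of emergency granulopoiesis, was 7.72, 7.67 and 7.59 in old and 8.30, 8.15, 8.23 and 7.92 in young GMP, lower by 0.49 (SE 0.16), and Etv6, an ETS repressor, was higher by 0.35 ± 0.13; neither group of values overlapped. The growth factor receptor genes Csf1r, Csf2ra and Csf3r had differences of 0.19 ± 0.15, 0.16 ± 0.15 and -0.12 ± 0.14, with overlap. Csf2rb was higher by 0.24 ± 0.13 without overlap, at 9.08, 8.82 and 8.84 in old and 8.76, 8.77, 8.81 and 8.35 in young GMP. Its difference was 0.13 ± 0.12 without replicate 4. Over 20 growth factor and cytokine receptor genes the median was 0.018 (-0.021 without replicate 4). At an unadjusted p below 0.05, 1 of them was higher, Flt3, and 0 lower. The 95% intervals of Cebpa, Spi1, Irf8, Gfi1, Csf1r, Csf2ra, Csf2rb and Csf3r lay within 0.63 log2 of 0.

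Azurophil granule genes were lowest on replicate 4. The mean of 26 azurophil granule genes was 10.72, 10.72 and 10.78 on the old arrays, 10.93, 11.01 and 10.96 on young replicates 1 to 3 and 10.5 on replicate 4, the lowest of all. Elane was 11.39, 11.48 and 11.45 in old GMP and 11.83, 11.95, 11.81 and 11.06 in young GMP, and Prtn3 (proteinase 3) was 10.34, 10.42 and 10.38 against 10.96, 11.14, 11.07 and 9.81. For both, the old arrays lay inside the young range only through replicate 4. Without it the differences went from -0.22 to -0.42 ± 0.14 for Elane and from -0.36 to -0.68 ± 0.21 for Prtn3, and the list median from -0.066 to -0.153. Neither gene passed in limma without young GMP replicate 4 alone (adjusted p = 0.360 for Elane and 0.331 for Prtn3). Prtn3 passed in 5 of 18 alternatives in limma, among them that without replicate 4 of both young groups (adjusted p = 0.00518, within a range of 0.00518 to 1). Of 22 genes of later granules and neutrophil maturation, 3 were lower at an unadjusted p below 0.05, with a median of -0.118 (-0.168 without replicate 4). S100a9, a subunit of calprotectin, was 9.06, 9.10 and 9.52 in old GMP and 10.65, 12.23, 11.91 and, on replicate 4, 9.03. With the 7 arrays it was lower by 1.73 log2 (SE 0.49, adjusted p = 0.775), and without replicate 4 by 2.37 (SE 0.33, adjusted p = 0.00479, from 0.00134 to 1 over 18 alternatives). Its partner S100a8 differed by -0.60 ± 0.42, and Ltf, Camp and Ngp, which mark later neutrophil stages, by -0.04, -0.39 and -0.08.

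Of the replication genes, which the series title points to, none passed in the limma comparison of GMP. The helicase subunits Mcm2 to Mcm7 load at replication origins and unwind DNA at the fork. Their differences were -0.12 (Mcm2), 0.11 (Mcm3), -0.13 (Mcm4), -0.27 (Mcm5), 0.04 (Mcm6) and -0.28 (Mcm7), with SE of 0.12 to 0.17. Mcm7 was 9.61, 9.42 and 9.56 in old GMP and 9.82, 9.76, 10.01 and 9.66 in young GMP, the only helicase subunit whose groups did not overlap. Its 95% interval was -0.54 to -0.02. Mcm6 was 11.18, 11.09 and 11.22 against 11.18, 11.10, 11.13 and 11.10, with an interval of -0.20 to 0.28. Over 19 origin licensing genes the median was -0.083 (-0.145 without replicate 4) with 0 higher and 1 lower at an unadjusted p below 0.05, and over 36 fork genes -0.071 (-0.148 without replicate 4) with 1 higher and 0 lower. That one fork gene was Rrm1, a subunit of the enzyme that makes deoxyribonucleotides, at 11.06, 11.09 and 11.09 in old and 10.91, 10.83, 10.79 and 10.74 in young GMP. Of 22 ATR checkpoint genes 0 passed an unadjusted p of 0.05 in either direction.

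Mitotic genes had positive differences for 25 of 31 members, with a median of 0.157 log2 (0.095 without replicate 4), between 0.021 and 0.255 over the alternatives. At an unadjusted p below 0.05, 2 were higher: Kif23, a kinesin of cytokinesis (0.49 ± 0.21), and Nuf2, a kinetochore protein (0.31 ± 0.13). The list mean was 9.66, 10.10 and 9.94 on the old arrays and 9.79, 9.84, 9.69 and 9.72 on the young arrays. Old replicate 1 was the lowest of all 7, so the groups overlapped. The 2 probe sets of Top2a, a topoisomerase of dividing cells, disagreed in sign, at -0.25 and 0.25. Of 32 recombination, Fanconi and end-joining genes 3 were lower at an unadjusted p below 0.05, all without overlap: Nhej1, an end-joining factor (-0.44 ± 0.14), Rad54l, a recombination motor protein (-0.35 ± 0.12), and Palb2, the partner of BRCA2 (-0.35 ± 0.14). Cdkn2a, the locus of the senescence inhibitor p16, was 6.95 to 7.30 in old and 6.99 to 7.28 in young GMP.

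**Figure D4:**
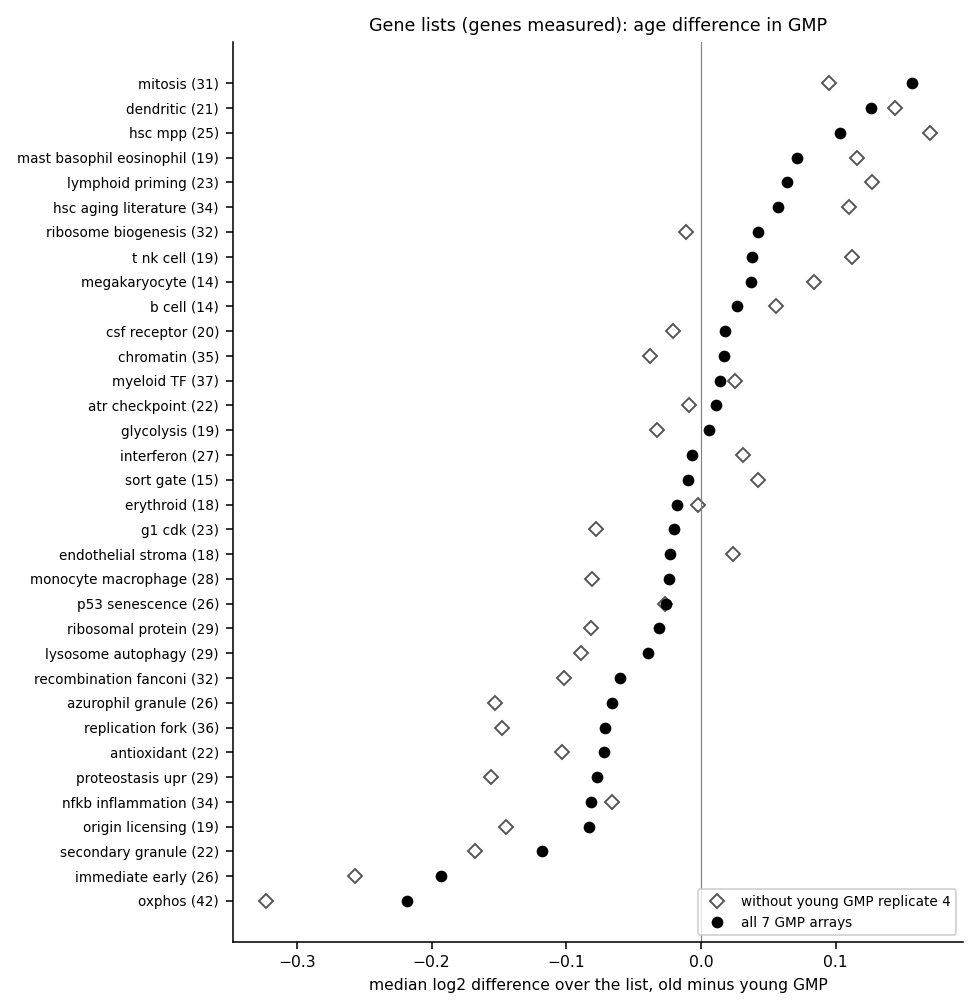
Median log2 difference, old minus young GMP, over the measured genes of 34 lists, with all 7 arrays (filled) and without young GMP replicate 4 (open); list sizes are in brackets. The respiratory chain list (oxphos) is lowest at -0.218 and -0.323 without replicate 4, and the dendritic list keeps a positive median, 0.126 and 0.144.

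In the remaining lists 0 genes passed the adjusted test. Their medians were -0.039 for 29 lysosome and autophagy genes (-0.089 without replicate 4), -0.031 for 29 ribosomal protein genes (-0.082 without it), 0.042 for 32 ribosome biogenesis genes (-0.011 without replicate 4), -0.077 for 29 proteostasis genes (-0.156 without replicate 4, slightly positive with the interquartile range as a covariate), -0.007 for 27 interferon genes (0.031 without replicate 4), 0.017 for 35 chromatin genes (-0.038 without replicate 4) and -0.026 for 26 p53 and senescence genes. For 23 G1 cyclin and kinase genes the median was -0.020 (-0.078 without replicate 4), and for 28 monocyte and macrophage genes -0.024 (-0.081 without it). Both medians were positive under some alternatives. Of the monocyte and macrophage genes 1 was higher and 2 lower at an unadjusted p below 0.05. These were Ifi205 (0.65 ± 0.20), low throughout, and Cd14, given above, and Vcam1 (-0.82 ± 0.38, with overlap). Genes of stem cells and multipotent progenitors, which could mark cells outside the GMP state, had a median of 0.103 (0.170 without replicate 4) over 25 measured, with 1 higher and 0 lower at an unadjusted p below 0.05. That gene was Angpt1, a ligand of the Tie2 receptor, at 9.04, 9.25 and 10.14 in old and 8.85 to 9.10 in young GMP, where old replicate 3 carried most of the difference of 0.49 ± 0.19.

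The 12 genes that passed without replicate 4 were chosen by leaving that array out, so its place among their values is a description and no support. Tceanc2, which encodes a protein with a domain of the elongation factor TFIIS, was 9.58, 9.65 and 10.01 in old GMP, 7.70, 7.40 and 7.37 on young replicates 1 to 3 and 9.68 on replicate 4. In HSC it was 8.86, 9.0 and 9.21 in old, 9.14 in young replicate 4 and 7.30 to 7.86 in the other young arrays. Replicate 4 lay within the range of the old GMP arrays, and the difference went from 1.71 ± 0.44 (adjusted p = 0.628) to 2.26 ± 0.31 (adjusted p = 0.00479, from 2.74e-07 to 1 over 18 alternatives).

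Wdfy1, a lipid-binding endosomal protein gene, was 8.17, 8.0 and 8.12 in old GMP, 9.03, 9.03 and 9.15 in young replicates 1 to 3 and 7.95 in replicate 4. The array again lay with the old ones. Vaultrc5, a small vault-associated RNA, was 5.76, 5.43 and 5.43 in old GMP against 7.5, 7.45, 7.27 and 5.26. Without replicate 4 the differences of Wdfy1 and Vaultrc5 were -0.97 ± 0.13 and -1.87 ± 0.25 (adjusted p = 0.00479 for both, with ranges of 0.00019 to 1 and 4.49e-05 to 1). Mgl2, a C-type lectin gene of macrophages and dendritic cells, was 6.60, 5.89 and 6.63 in old GMP against 7.24, 7.78, 7.46 and 6.86, and passed at -1.12 ± 0.18 (adjusted p = 0.0211). Tmem267, which codes for a membrane protein, passed at -1.32 ± 0.22 (adjusted p = 0.0211), at 7.2, 7.52 and 7.51 against 8.60, 9.08, 8.50 and, on replicate 4, 7.64. The rest of the 12 were Slamf7, Gm2a, Tnfrsf26, Cd14 and S100a9, given above, and P3h1 (a collagen prolyl hydroxylase, -0.70 ± 0.12) and Tubb6 (a beta-tubulin, -0.83 ± 0.14), which were named after their values were seen. For these genes, age and whatever sets young replicates 1 to 3 apart from replicate 4 cannot be told apart.

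The ageing of GMP was then set against that of HSC by testing the difference between the 2 age differences. In this test 18 genes passed (0.0933%), 5 with a higher and 13 with a lower value for HSC minus GMP. With the replicate block within each age, added after seeing the data because same-numbered GMP and HSC arrays correlate, 22 passed, and Gpr183, Trpc1 and Itm2a did not. Flt3 was the only one of the 18 that passed in all 17 alternatives, with an adjusted p of 0.0028 and a range of 9.25e-06 to 0.0171. Its old arrays were above the young ones in GMP and below them in HSC, at 7.65, 7.74 and 7.88 in old and 8.65, 8.29, 8.58, 8.47 and 8.25 in young HSC. The age difference was 0.73 ± 0.13 in GMP and -0.69 in HSC, and the difference between them was -1.43 ± 0.18 (95% interval -1.80 to -1.06). The gate of the HSC excluded cells with Flk2, which is the protein of Flt3, at both ages. The RNA was 8.25 to 8.65 in young HSC and 7.65 to 7.84 in young GMP. What part the gate had in the Flt3 values was not tested.

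The other 17 genes also passed the age test within HSC in the limma fit, and none passed it within GMP. Gpr183, a receptor for oxysterols, was 8.04, 8.25 and 7.68 in old GMP and 7.82, 7.70, 7.95 and 7.91 in young GMP, a difference of 0.15, against 1.77 in HSC. Lgals1, the gene of galectin 1, was among the brightest in GMP, at 12.41, 12.67 and 12.37 in old and 12.42 to 12.54 in young GMP, a difference of -0.00, against -1.72 in HSC. Plac8 and Ctss, both of myeloid cells, differed by 0.03 and -0.03 in GMP and by -1.73 and -1.57 in HSC. Zg16, Tdrd9, Trpc1 and Tmem47 had GMP differences of -0.15, 0.07, -0.09 and -0.00 and HSC differences of 1.36, 1.24, 1.5 and 1.30. Itm2a differed by 0.05 in GMP and -1.29 in HSC. Rnase6, a ribonuclease of myeloid and dendritic cells, was higher in old GMP by 0.53 ± 0.23, with overlap, and lower in old HSC by 1.35. Of the replication genes, Mcm6 (0.04 in GMP, -0.81 in HSC) and Rrm1 (0.27 and -0.55) passed too, narrowly, at an adjusted p of 0.0461 and 0.0464 in limma. Mcm6 passed in 7 of 17 alternatives (adjusted p up to 0.153) and Rrm1 in 6 of 17 (up to 0.26). The number passing was between 1 and 8 when any single GMP array was left out.

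**Figure D5:**
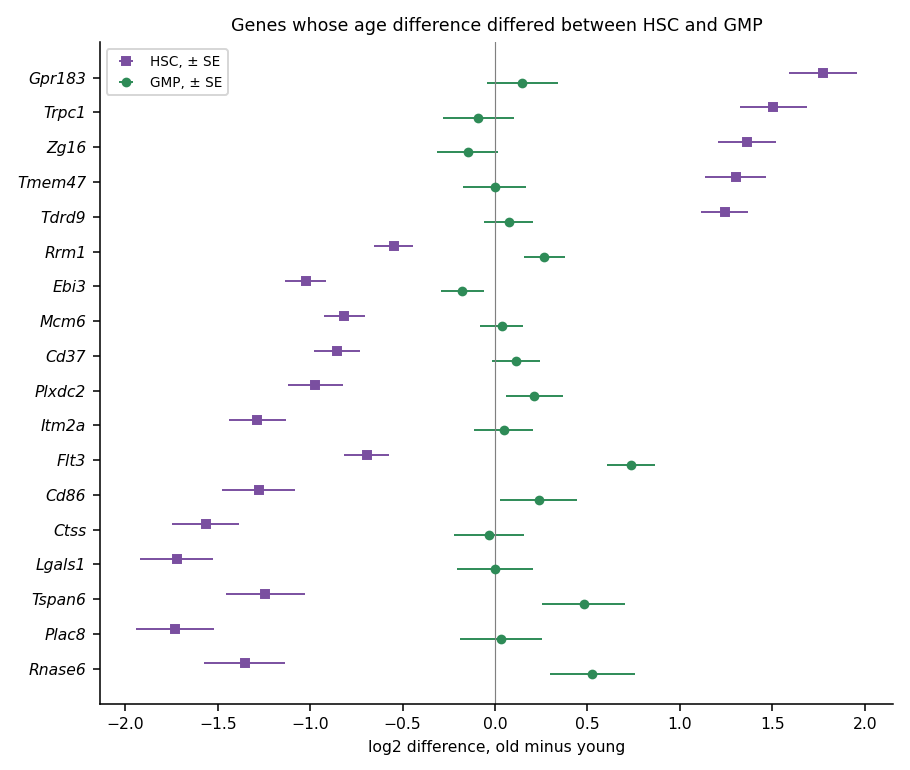
Age difference (log2, old minus young) of the 18 genes that passed the test of the difference between the cell types; circles GMP, squares HSC, bars ± 1 SE of the fit. Flt3 is at 0.73 in GMP and -0.69 in HSC, and Lgals1 at -0.00 in GMP and -1.72 in HSC.

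Genes called with age in HSC had median differences of the same sign in GMP. Because they were chosen for their HSC differences, a smaller median in GMP follows in part from that choice. It does not measure whether GMP aged less. The 434 genes higher in old HSC had a median of 0.472 log2 there and 0.065 in GMP, with 307 positive, where 9277 of all 19296 genes were positive. In GMP 20 of them were higher and 2 lower at an unadjusted p below 0.05. The 1779 genes lower in old HSC had a median of -0.607 there and -0.132 in GMP, with 1421 negative, where 10019 of all genes were negative. In GMP 198 of them were lower and 11 higher at an unadjusted p below 0.05, where all genes gave 569 lower and 301 higher. The GMP and HSC arrays share no array, but deviations of same-numbered arrays of an age correlated at 0.161 to 0.525 in young and 0.05 to 0.422 in old mice, and both ages enter 1 fit, so the counts of the 2 cell types are not independent.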

How the data were processed

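The authors' deposited table holds log2 expression values of 23309 probe sets on 15 arrays; RMA, affy and limma are named, without versions, in the submitters' processing notes, and the genome build and filters were not given in the sources used here. Probe sets with several symbols (1174) or none (1407) were left out, and the brightest probe set stood for each of the 804 genes with more than 1, which left 19296 genes. A group-means model on all 15 arrays was fitted with limma 3.58.1 in R 4.3.3 (empirical Bayes, Benjamini-Hochberg over all genes, threshold 0.05). A difference is old minus young GMP, with the SE and 95% interval of the fit. Depth does not apply to arrays, and the number of arrays limits precision. The script was tested on simulated data.

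Members and gene lists were chosen with earlier results of these data known. The genes named were the 10 largest non-overlapping differences each way among genes brighter than the median and with an unadjusted p below 0.05, the 5 smallest p, up to 4 members of each list by p, gate, sex-linked, Mcm and defining GMP genes, up to 6 each way for HSC against GMP, and up to 4 each way under an alternative that called genes. Other list members are named for their role. Replicate numbers did not pair old with young GMP arrays (correlations of -0.234, -0.132 and -0.007). Promoter windows and gene names are RefSeq's, GRCm38.p6. Alternatives were other normalisations, filters, covariates and weights, replicate blocks, also within each age, and leaving out arrays.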

Additional observations from a re-analysis of the deposited data

Results flagged for a closer look

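Young GMP replicate 4 was far from the other young GMP arrays for several genes, measured as its gap to the nearest array divided by the range of the 4 arrays, where 1 would put the other 3 at the same value. The share was 0.845 for Elane, 0.858 for Prtn3, 0.891 for Csf2rb, 0.859 for Tceanc2, 0.898 for Vaultrc5, 0.900 for Wdfy1, 0.926 for Calml4, 0.860 for Mt1, 0.936 for Mtg1 and 0.858 for Mpc1. It was 0.846 for the mean of the azurophil granule list, 0.848 for the respiratory chain list and 0.934 for the lysosome and autophagy list. Young GMP replicate 1 was far from the rest for Cd48, at 0.914. Tceanc2, Vaultrc5, Wdfy1, Calml4, Mt1, Mtg1 and Mpc1 were named because they passed when this array was left out or adjusted for, so their distance there was set by that choice. Over all genes 7.6% exceeded the limit, where chance gives about 1 in 20 groups, 1138 on replicate 4 and 146, 63 and 119 on replicates 1 to 3.

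For the following genes the HSC and GMP age differences themselves differed in limma's test. HSC minus GMP was 1.511 for Zg16, 1.168 for Tdrd9, 1.626 for Gpr183, 1.594 for Trpc1 and 1.303 for Tmem47. It was -1.429 for Flt3, -1.721 for Lgals1, -1.333 for Itm2a, -1.882 for Rnase6, -1.533 for Ctss and -1.764 for Plac8.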

How the results depend on the processing

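The count of genes called with age in GMP, 0 in the comparison of all arrays, was 0 to 12 when single GMP arrays were left out. It was 188 without replicate 4 of both young groups, 224 with the Y-linked mean as a covariate, 832 with array weights, which gave young GMP replicate 4 a weight of 0.34, and, chosen after seeing the data, 408 with the GMP arrays alone and without young GMP replicate 4. With the replicate block it was 232, with numbers 4 and 5 present only in young arrays; the numbers do not pair the ages. The same settings gave 20, 24, 73, 38 and, with the block, 22 list genes called, and 0 to 2 when single arrays were left out. Over all 19296 genes the share called was 0.974% without replicate 4 of both young groups and 1.16% with the Y-linked mean. The list counts were not set against such shares, so they do not say whether the lists exceed all genes. Quantile normalisation, the GMP arrays alone, the brightness filter, the interquartile range, the mean of probe sets and a trended, robust prior gave 0. For the difference between HSC and GMP the count of 18 became 1 to 8 when single arrays were left out, 5 after quantile normalisation, 10 among genes above the median brightness, 11 with the interquartile range, 41 with the replicate block, 2407 with array weights, 32 with the Y-linked mean and 145 without replicate 4 of both young groups. The count of 19088 genes with an interval within 1 log2 was 9496 in a separate fit of the 9648 genes above the median brightness, where fewer were tested. Of 195 named genes, 26 took the other sign under some alternative; none of the 23 genes tested for age in GMP did. The cause of these changes was not tested.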

Other observations

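A list of genes known from published work to be raised in aged stem cells had a small median in GMP. Over 34 measured the median difference was 0.057 log2 in GMP (0.110 without young GMP replicate 4) and 0.580 in HSC; in GMP 1 was higher and 2 lower at an unadjusted p below 0.05. The median in GMP turned negative with the replicate block or with the Y-linked mean as a covariate. Aldh1a1, a retinaldehyde dehydrogenase, was the one higher, at 7.19, 6.94 and 8.01 in old and 6.31, 6.88, 6.58 and 7.0 in young GMP, with overlap. The 2 lower were Mt1 and Mt2. Mt2 differed by -0.94 in GMP and by 1.08 in HSC, and neither passed the adjusted test.

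Genes that passed in fits without replicate 4 of both young groups or with the Y-linked mean included 5830417I10Rik, at 8.08, 7.71 and 8.25 in old and 6.68, 6.37, 6.08 and 7.96 in young GMP. Calml4, a calmodulin-like gene, was 7.05, 7.45 and 7.25 against 8.53, 8.66, 8.53 and 6.92. Mpc1, a part of the mitochondrial pyruvate carrier, was 8.27, 8.37 and 8.63 against 9.31, 9.30, 9.17 and 8.37. Rnu3a, a U3 small nucleolar RNA, was 10.09, 10.53 and 10.45 against 11.40, 11.21, 11.67 and 10.09. In all 4 the last young array, replicate 4, lay within or next to the range of the old arrays and apart from the other young arrays.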
